A study of Mus musculus with 6 samples.

Results

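The genes described here are those of the cell division cycle and of DNA replication in mouse pancreatic islets, compared between control islets and islets in which Sox17 had been switched on for 24 hours. They are a fixed list of 46 genes, of which 44 could be measured, among 19937 genes in all. Each gene is represented by the probe set that carries its symbol alone and is brightest over the 6 arrays. Cdkn1a, which encodes a p53-induced inhibitor of cyclin-dependent kinases, has a probe set that also carries the symbol 4930567H12Rik, and for the mitotic cyclin gene Ccnb1 no probe set is named in the annotation used. These 2 genes have no value here.

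By the genotype in the sample labels, control islets came from Ins2-rtTA mice and Sox17-GOF islets from Ins2-rtTA;tetO-Sox17 mice, with 3 arrays each. For protein stains of the same 24-hour model the paper names tetO-Sox17 mice as controls, so whether the driver or the tetO-Sox17 transgene is shared by the groups rests on the labels alone. Both groups were 16 weeks old, on a C57BL/6 background reached by backcrossing from outbred stock, and both received doxycycline for 24 hours. The Ins2 promoter limits rtTA to insulin-producing cells, while the RNA came from whole islets, which also hold other endocrine cells, vessels, stroma, leukocytes and adhering exocrine cells. By the study's methods the animals of this experiment were male and the 3 samples of a genotype were independent biological replicates. Values are log2 signals after RMA normalization, so that a difference of 1 is a 2-fold change. A low signal near 4.63, the 20th percentile of all values, lies close to the background.

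Cells enter the cycle through G1, when D-type cyclins with Cdk4 or Cdk6, and then E-type cyclins with Cdk2, inactivate the retinoblastoma protein and release E2F transcription factors. DNA is opened in S phase by a helicase that includes the MCM and GINS proteins and is copied by polymerases that PCNA holds to the template. Mitosis follows under the control of Cdk1 with its cyclins A and B, and its genes are transcribed late in the cycle through promoters that often hold CCAAT boxes and a cell cycle genes homology region (CHR). Adult β cells divide rarely. Cdk4, Ccnd2, the CDK inhibitors and menin are known from mouse genetics to govern how many of them form.

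Sox17 was higher on each Sox17-GOF array, with log2 signals of 5.50, 5.72 and 5.71 in control islets (replicates 1, 2 and 3) and 6.35, 6.22 and 6.36 in Sox17-GOF islets. The increase was 1.59-fold (log2 fold change 0.67 ± 0.09 SE, limma adjusted p = 0.00876, Benjamini-Hochberg over all named probe sets). The exact permutation test, two-sided, gave p = 0.1, the smallest that 3 against 3 arrays allow. Arrays of one group correlated at 0.984 to 0.991 over all probe sets. Hormone genes of the islet were bright on all arrays, from 13.02 to 13.12 for Ins2 and from 13.47 to 13.77 for Gcg, and so was the acinar gene Ctrb1, from 13.39 to 13.89.

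Among the 44 measured genes, 5 rose, 1 fell and 38 did not pass the test. Smc2, Cdk1, Ccnb2, Hmgb2 and Gins1 were higher and Cdk4 was lower in Sox17-GOF islets. Over all genes 5.21% were called, 2.77% higher and 2.44% lower. The median log2 fold change of the 44 genes was 0.17, beside -0.01 over all genes. The control and the Sox17-GOF arrays did not overlap for 16 of the 44, with 14 higher and 2 lower in Sox17-GOF islets. Over all genes 25.5% did not overlap, 11.3% higher and 14.2% lower. At an unadjusted p under 0.05 there were 16 of the 44, where all genes gave 19.7%. Changes were unevenly spread over the phases: the median log2 fold change was 0.47 for 18 genes of G2/M, mitosis and chromosome structure, 0.08 for 11 genes of DNA replication, 0.13 for 6 inhibitors and brakes, and 0.00 for 9 cyclins, kinases and E2F of G1/S. Differences between these groups of genes are given as a description, with no test.

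**Figure D1:**
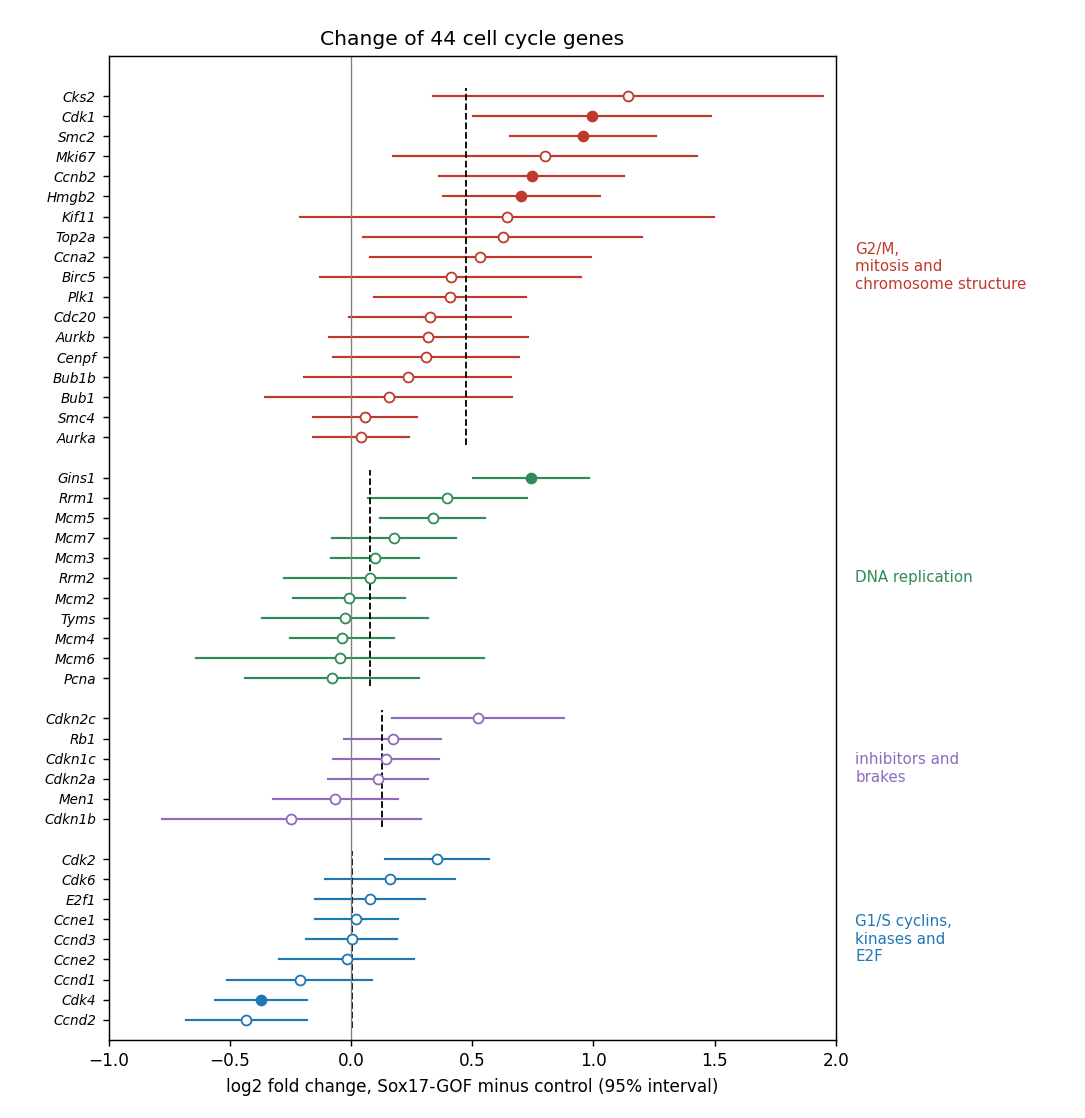
Log2 fold change of each of the 44 genes (Sox17-GOF minus control, 3 arrays each) with its 95% interval from limma, ordered within 4 groups. Filled circles have an adjusted p under 0.05, open circles do not, and dashed lines are group medians. All 18 G2/M genes lie above 0 (15 without Sox17-GOF replicate 2), while the G1/S genes lie on both sides of it.

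The promoters of 5 of the 6 called genes are printed to show which of a few chosen motifs they carry. Gins1, the other called gene, has no entry in the table used. The 250 bases before the transcription start were read from RefSeq windows of GRCm38.p6, 5′ to 3′ on the strand of the gene, for 36 of the 46 genes with an entry. In the first 4 sequences, capitals mark the CHR motif TTTGAA and the CCAAT box in either orientation (TTCAAA and ATTGG on the other strand).

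Cdk1 (chr10:69352913-69353162, minus strand): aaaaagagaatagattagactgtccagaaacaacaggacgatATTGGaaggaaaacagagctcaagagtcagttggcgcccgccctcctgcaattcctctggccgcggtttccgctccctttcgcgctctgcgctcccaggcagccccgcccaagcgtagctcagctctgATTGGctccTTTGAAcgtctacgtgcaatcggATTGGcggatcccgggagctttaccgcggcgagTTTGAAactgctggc

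Ccnb2 (chr9:70421555-70421804, minus strand): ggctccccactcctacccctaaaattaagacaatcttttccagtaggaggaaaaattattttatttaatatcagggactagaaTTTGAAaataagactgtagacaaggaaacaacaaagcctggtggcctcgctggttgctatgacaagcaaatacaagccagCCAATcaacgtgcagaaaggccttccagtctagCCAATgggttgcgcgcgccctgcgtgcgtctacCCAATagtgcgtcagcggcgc

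Hmgb2 (chr8:57511593-57511842, plus strand): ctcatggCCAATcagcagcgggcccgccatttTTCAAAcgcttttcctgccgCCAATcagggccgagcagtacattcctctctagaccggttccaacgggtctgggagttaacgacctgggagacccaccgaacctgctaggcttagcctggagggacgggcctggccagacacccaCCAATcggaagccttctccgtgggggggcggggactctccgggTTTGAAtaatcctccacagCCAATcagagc

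Smc2 (chr4:52438971-52439220, plus strand): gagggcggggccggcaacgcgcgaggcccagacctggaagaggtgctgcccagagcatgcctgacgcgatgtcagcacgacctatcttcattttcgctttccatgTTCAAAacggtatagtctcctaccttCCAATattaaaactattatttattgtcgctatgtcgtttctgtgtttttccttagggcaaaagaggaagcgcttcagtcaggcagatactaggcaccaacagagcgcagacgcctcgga

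Each of these 4 windows, from genes that rose, held at least 1 CHR motif and 1 CCAAT box. The window of Cdk1 held 2 CHR motifs and 3 CCAAT boxes, with one CHR 15 to 10 bases before the start. Ccnb2 carried 3 CCAAT boxes, which begin 87, 54 and 21 bases before the start. Both motifs together occurred in 5.55% of the 32851 RefSeq windows, in 8 of the 16 windows of G2/M genes and in 1 of the 10 of DNA replication genes. They occurred together in 0 of 7 windows of G1/S genes and 0 of 10 of inhibitors. These windows came from 16 G2/M, 9 DNA replication, 6 G1/S and 5 inhibitor genes, so some genes have more than 1 window. Alone, TTTGAA was found in 16% and CCAAT in 33.8% of all windows. By group, CCAAT was in 15 of 16 G2/M, 9 of 10 DNA replication, 2 of 7 G1/S and 4 of 10 inhibitor windows. E2F motifs (TTTCCCGC, TTTGGCGC, TTTCGCGC or TTTGCCGC, either strand) were left in lower case. They were in 6 of 43 windows of listed genes, 3 of these from DNA replication genes, and in 1.86% of all windows. Of the 4 windows above, Cdk1 alone held an E2F motif, 131 to 124 bases before the start. The fifth sequence is that of Cdk4, the gene that fell, with the E-box CACGTG in capitals.

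Cdk4 (chr10:127063285-127063534, plus strand): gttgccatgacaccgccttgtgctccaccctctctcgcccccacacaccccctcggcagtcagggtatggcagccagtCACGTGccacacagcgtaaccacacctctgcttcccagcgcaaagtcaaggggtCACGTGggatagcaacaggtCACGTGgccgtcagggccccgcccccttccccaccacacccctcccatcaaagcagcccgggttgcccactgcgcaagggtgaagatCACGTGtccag

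This window held 4 E-boxes and neither a CHR motif nor a CCAAT box, and 6.02% of all windows hold an E-box. The motif AACAAT, a core that SOX proteins can bind, was in none of these 5 windows, in 2 of the 43 windows of the 36 listed genes with an entry and in 9.42% of all windows. The motifs were chosen with the windows in view. A match of letters is a description of the window and not a binding site.

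By the sign of the brightest probe set, 18 of 18 measured genes of mitosis and chromosome structure were higher in Sox17-GOF islets, beside 47.1% of all genes. Without Sox17-GOF replicate 2 this was 15 of 18, since Bub1 (-0.12), Aurka (-0.02) and Smc4 (-0.02) then had log2 differences below 0. Of the 18, 4 rose and 14 did not pass the test, and 8 had no overlap between the groups. Cdk1, the kinase that drives entry into mitosis, had log2 signals of 6.55, 6.47 and 6.54 in control islets and of 7.05, 8.0 and 7.51 in Sox17-GOF islets. Its control arrays lay within 0.1 of one another, and every Sox17-GOF array lay above them, but the Sox17-GOF arrays differed widely. The rise was 1.99-fold (log2 fold change 0.99 ± 0.21 SE, limma adjusted p = 0.0405). Ccnb2, a B-type cyclin that partners Cdk1, measured 6.30, 6.60 and 6.76 in control islets and 6.99, 7.47 and 7.44 in Sox17-GOF islets. The groups did not overlap, and the rise was 1.68-fold (log2 fold change 0.75 ± 0.16 SE, limma adjusted p = 0.0462).

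Smc2, an ATPase subunit that both condensin complexes share to compact chromosomes, had the lowest adjusted p of the group. It measured 6.82, 6.73 and 6.65 in control islets and 7.71, 7.93 and 7.43 in Sox17-GOF islets. This was a 1.94-fold rise (log2 fold change 0.96 ± 0.13 SE, limma adjusted p = 0.00816), and the lowest Sox17-GOF array was well above the highest control array. Smc4, its partner ATPase in condensin, measured 9.33, 9.36 and 9.26 in control islets and 9.27, 9.53 and 9.31 in Sox17-GOF islets. These overlap, and the 95% interval of the log2 difference ran from -0.16 to 0.27.

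Hmgb2, a chromatin protein that bends DNA and is abundant in dividing cells, measured 9.04, 9.19 and 9.01 in control islets and 9.48, 9.86 and 10.01 in Sox17-GOF islets. It rose 1.63-fold (log2 fold change 0.70 ± 0.14 SE, limma adjusted p = 0.0323). This value holds for the brightest of 4 probe sets with the symbol. The other probe sets had log2 differences of -0.04, 0.18 and 0.27, none of which passed, and the mean of the 4 gave 0.28 (adjusted p = 0.213). Cks2, a small subunit that binds Cdk1, showed the opposite. Its brightest probe set measured 5.55, 6.42 and 6.35 in control islets and 6.69, 7.96 and 7.09 in Sox17-GOF islets, without overlap but not past the test (log2 fold change 1.14 ± 0.35 SE, limma adjusted p = 0.118). The other 2 probe sets of Cks2 had log2 differences of 1.00 (adjusted p = 0.0239) and 1.55 (adjusted p = 0.0397), and the mean of the 3 gave 1.23 (adjusted p = 0.0201). All probe sets of each of these 2 genes are annotated to the same RefSeq transcript, and whether they read related sequences elsewhere was not tested.

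Mki67, which encodes the proliferation antigen Ki-67, did not pass. Its log2 signals were 5.37, 5.58 and 5.60 in control islets and 5.90, 7.02 and 6.03 in Sox17-GOF islets. The groups did not overlap, yet a single array, Sox17-GOF replicate 2, stood about 1 log2 unit above the others of its genotype. The log2 fold change of 0.80 (± 0.27 SE, limma adjusted p = 0.158) became 0.45 without that array (limma adjusted p = 0.0974), and the gene passed in neither fit. Top2a, the topoisomerase that untangles DNA in G2 and mitosis, measured 6.14, 6.38 and 6.68 in control islets and 6.65, 7.59 and 6.84 in Sox17-GOF islets. Here the groups overlapped, with a log2 fold change of 0.63 (± 0.25 SE, adjusted p = 0.227). This value holds for the brighter of 2 probe sets that carry the symbol alone. The other lay near the background, with means of 4.20 in control and 3.99 in Sox17-GOF islets. Its log2 difference was -0.21 (limma adjusted p = 0.257). Probe sets that Top2a shares with Hibadh gave -0.14 and -0.24, and neither passed. Kif11, the motor that separates spindle poles, is named after its values were seen because it shows Sox17-GOF replicate 2 most plainly. It measured 5.37, 5.26 and 5.35 in control islets and 5.36, 6.95 and 5.60 in Sox17-GOF islets, and its log2 fold change of 0.64 fell to 0.15 without Sox17-GOF replicate 2. The checkpoint kinase gene Bub1 lay near the background at 4.79, 4.62 and 4.69 in control islets and 4.46, 5.40 and 4.71 in Sox17-GOF islets, with overlap and a log2 difference of 0.16 (95% interval from -0.35 to 0.66).

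The other members of this group were Ccna2, Plk1, Birc5, Cdc20, Aurkb, Cenpf, Bub1b and Aurka, which encode cyclin A2, mitotic kinases and factors of the kinetochore, of chromosome segregation and of exit from mitosis. Their log2 fold changes ran from 0.04 (Aurka) to 0.53 (Ccna2), and none passed. Ccna2, with 5.70, 5.89 and 5.95 in control islets and 6.11, 6.87 and 6.17 in Sox17-GOF islets, and Plk1, with 5.75, 5.83 and 6.08 in control islets and 6.16, 6.17 and 6.54 in Sox17-GOF islets, were the ones without overlap.

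**Figure D2:**
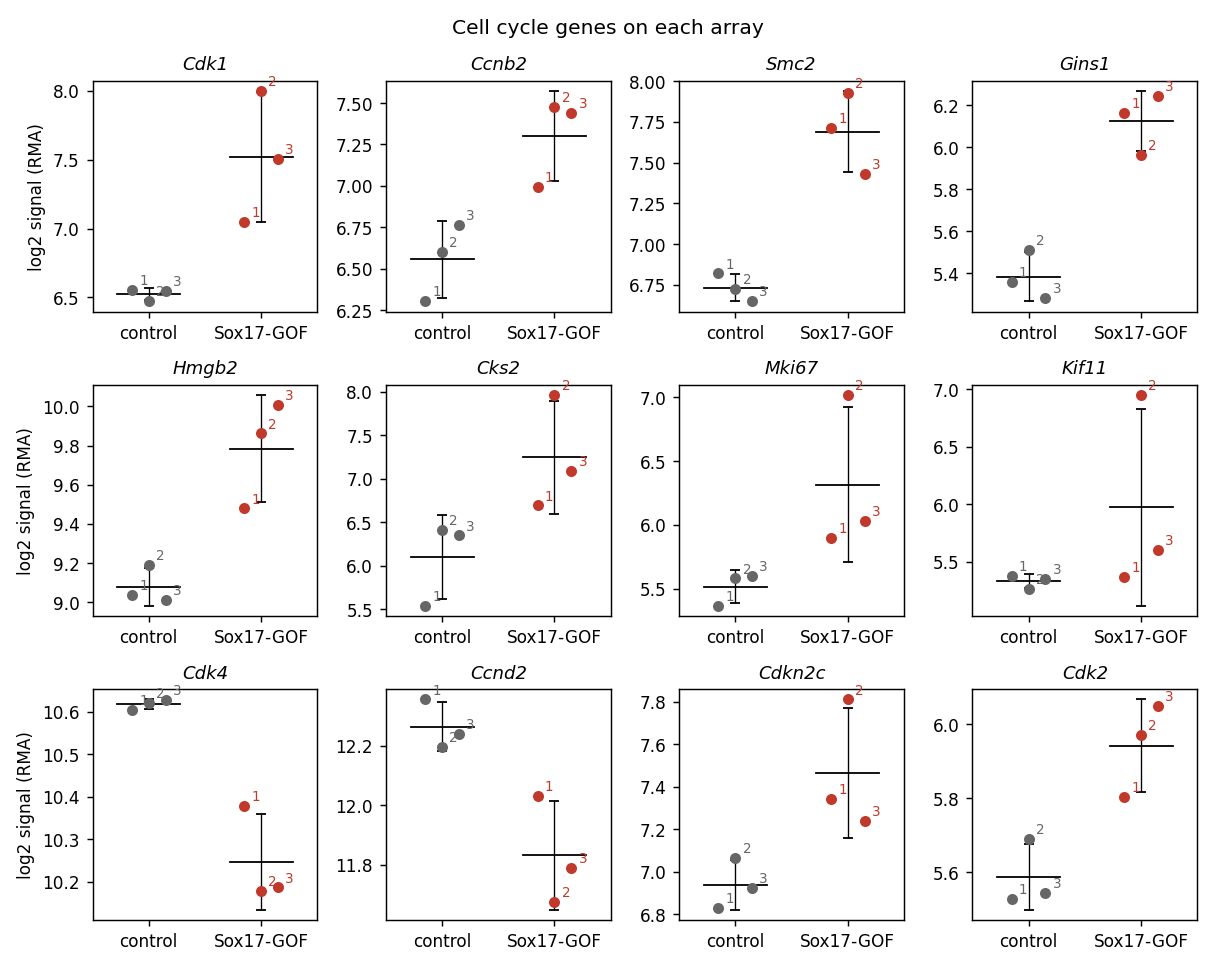
Log2 signal of 12 cell cycle genes on each array (points, numbered by replicate; 3 grey controls, 3 red Sox17-GOF). Horizontal lines are group means and vertical bars are SDs. Sox17-GOF replicate 2 is the highest point for Cdk1, Ccnb2, Smc2, Cks2, Mki67, Kif11 and Cdkn2c, while Cdk4 and Ccnd2 are lower on every Sox17-GOF array.

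Sox17-GOF replicate 2 was the highest of the 6 arrays for 15 of the 18 mitotic genes, and over all genes it was the highest for 13.6%. The mean deviation of the 18 genes from their control means was -0.11, 0.05 and 0.06 on the control arrays and 0.22, 0.89 and 0.45 on the Sox17-GOF arrays. The spread among Sox17-GOF arrays (median SD 0.36) exceeded that among control arrays (median SD 0.13) in 18 of the 18 genes. It was also larger in 8 of 8 acinar and 6 of 6 duct markers, in 6 of 12 leukocyte markers and in 2 of 6 inhibitors. The share over all genes was not computed. Without Sox17-GOF replicate 2 the median log2 fold change of the group was 0.25, and Smc2 and Cdk1 remained called. For DNA replication genes the same 3 Sox17-GOF arrays deviated by 0.26, 0.19 and 0.00, with the highest mean on replicate 1.

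**Figure D3:**
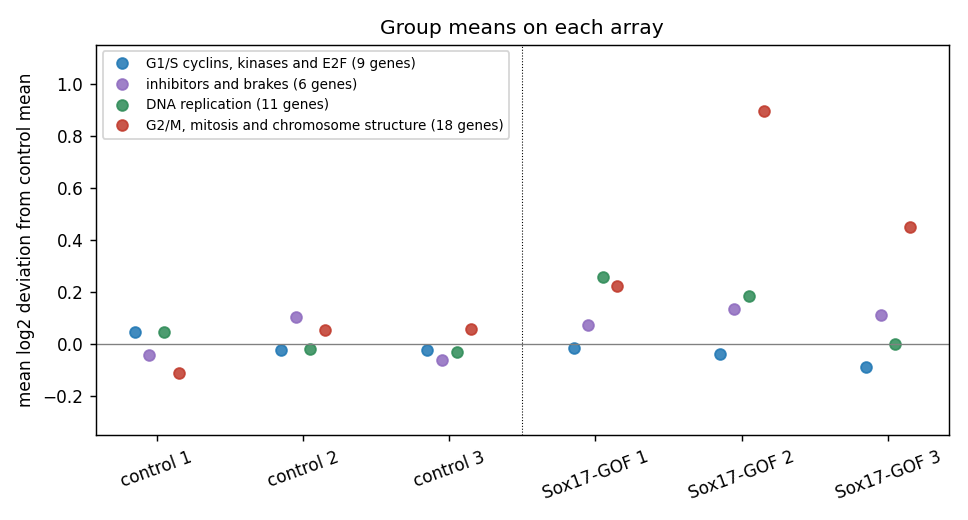
Mean log2 deviation from the control mean for the genes of each of the 4 groups on each of the 6 arrays. The G2/M genes (red) reach 0.89 on Sox17-GOF replicate 2, 0.45 on replicate 3 and 0.22 on replicate 1, and the G1/S genes (blue) stay near 0 on all arrays.

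Markers of other cells that islet preparations hold were read from the same arrays and are set beside the mitotic genes here. Of 12 measured leukocyte markers, 0 were higher and 1 was lower, and 4 had an unadjusted p under 0.05. Their mean log2 signal was 6.59 to 7.11 on control and 6.50 to 6.78 on Sox17-GOF arrays. Of 9 endothelial markers, 0 were higher and 1 was lower (means of 8.06 to 8.14 and of 7.94 to 8.06). At an unadjusted p under 0.05 there were 5, Pecam1 and Cdh5 higher and Kdr, Flt1 and Emcn lower. Stellate cell and fibroblast markers shared the sign of the mitotic genes. All 9 had a log2 difference above 0 (median 0.34), beside 47.1% of all genes. None passed limma, and 5 had an unadjusted p under 0.05 (19.7% of all genes did). Their mean was 6.51 to 6.89 on control and 6.87 to 7.40 on Sox17-GOF arrays. Their mean deviation from the control means was 0.12, 0.54 and 0.65 on Sox17-GOF replicates 1, 2 and 3. That of the mitotic genes was 0.22, 0.89 and 0.45. Among the Sox17-GOF arrays both were lowest on replicate 1, with the stromal markers highest on replicate 3 and the mitotic genes on replicate 2. Duct markers had means of 8.04 to 8.13 and of 8.19 to 8.79, with 1 of 6 higher. At an unadjusted p under 0.05 there were 3 of the 6, Krt19 and Krt8 higher and Krt7 lower. The acinar markers, 8 measured and 0 called (0 also at an unadjusted p under 0.05), had means of 12.11 to 12.39 and of 11.55 to 12.57. Markers of α, δ, PP and ε cells, 7 measured, held 0 called genes by either criterion, with means of 9.93 to 10.12 and of 9.90 to 10.25. Of 7 β cell markers 3 were lower and 0 higher, and no other had an unadjusted p under 0.05 (means of 10.61 to 10.63 and of 10.17 to 10.29). The part of these cells in the mitotic values was not tested, and in whole islets a change in the number of dividing cells cannot be told apart from a change in RNA per cell.

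Among 11 genes of DNA replication, 1 rose and 10 did not pass. Gins1, a subunit of the GINS complex that activates the replicative helicase, measured 5.36, 5.51 and 5.28 in control islets and 6.17, 5.96 and 6.24 in Sox17-GOF islets. Its Sox17-GOF arrays stayed close together and above all controls, a 1.67-fold rise (log2 fold change 0.74 ± 0.10 SE, limma adjusted p = 0.00904). Rrm1, the large subunit of ribonucleotide reductase, which makes deoxynucleotides, measured 7.44, 7.53 and 7.46 in control islets and 8.15, 7.90 and 7.57 in Sox17-GOF islets. The groups did not overlap, but the lowest Sox17-GOF array was close to the controls (log2 fold change 0.40 ± 0.14 SE, limma adjusted p = 0.176), and without that array, replicate 3, the gene was called (log2 fold change 0.55, adjusted p = 0.0331). Rrm2, the small subunit of the enzyme, had a log2 difference of 0.08 with a 95% interval from -0.28 to 0.43.

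The 6 MCM proteins form the ring of the replicative helicase, and none of their genes passed. Mcm5 came nearest, with 6.38, 6.17 and 6.22 in control islets and 6.49, 6.70 and 6.59 in Sox17-GOF islets, no overlap and a log2 fold change of 0.34 (± 0.09 SE, limma adjusted p = 0.0914). The other MCM genes ranged from -0.05 (Mcm6) to 0.18 (Mcm7) in log2 fold change. Mcm3 measured 5.40, 5.25 and 5.25 in control islets and 5.43, 5.42 and 5.36 in Sox17-GOF islets, so that the groups overlapped. Pcna, the sliding clamp of the fork, lay at 11.37, 11.15 and 10.92 in control islets and 11.13, 11.27 and 10.80 in Sox17-GOF islets. It was not different beyond its spread (log2 difference -0.08, 95% interval from -0.44 to 0.28), nor was Tyms, thymidylate synthase (-0.02, 95% interval from -0.37 to 0.32).

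**Figure D4:**
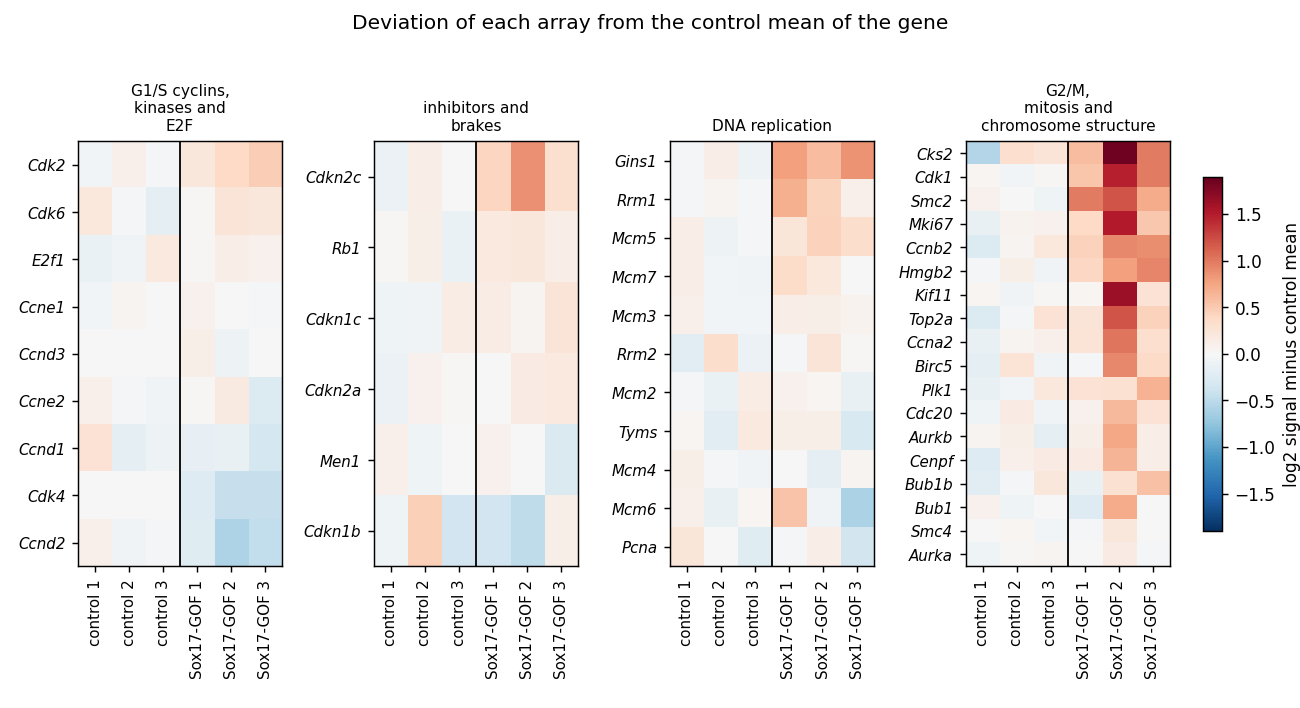
Log2 signal of each of the 44 genes on each of the 6 arrays minus the mean of its 3 control arrays (red higher, blue lower, on a scale symmetric around 0). The G2/M panel is reddest on Sox17-GOF replicate 2, Gins1 is red on all 3 Sox17-GOF arrays, and Cdk4 and Ccnd2 are blue on all 3.

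The cyclins and kinases of G1 included the only called decrease among the 44 genes. Cdk4, the main G1 kinase of β cells, measured 10.60, 10.62 and 10.63 in control islets and 10.38, 10.18 and 10.19 in Sox17-GOF islets. The controls agreed closely and each Sox17-GOF array lay below them, a 1.29-fold decrease (log2 fold change -0.37 ± 0.08 SE, limma adjusted p = 0.0475). Ccnd2, the D-type cyclin that β cell growth after birth depends on, measured 12.36, 12.20 and 12.24 in control islets and 12.03, 11.67 and 11.79 in Sox17-GOF islets. It did not overlap either and had a log2 fold change of -0.43 (± 0.11 SE, limma adjusted p = 0.0683), so it missed the threshold. With an intensity trend in the variance its adjusted p was 0.0422. Ccnd1, a second D-type cyclin, measured 10.32, 9.88 and 9.96 in control islets and 9.90, 9.91 and 9.72 in Sox17-GOF islets, which overlap (log2 difference -0.21, 95% interval from -0.51 to 0.08). For Ccnd3 the log2 difference was 0.00, with an interval from -0.18 to 0.19.

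Cdk2, the partner of E-type cyclins at the start of S phase, was higher by value and not by test. It measured 5.53, 5.69 and 5.54 in control islets and 5.80, 5.97 and 6.05 in Sox17-GOF islets, without overlap (log2 fold change 0.35 ± 0.09 SE, limma adjusted p = 0.0801). The remaining G1/S genes were Ccne1, Ccne2, Cdk6 and E2f1. Their log2 fold changes lay between -0.02 (Ccne2) and 0.16 (Cdk6), all with overlap.

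No inhibitor or brake passed the test, by limma at the adjusted threshold, and 1 of the 6 measured had an unadjusted p under 0.05. That gene was Cdkn2c, an inhibitor of Cdk4 and Cdk6, which measured 6.83, 7.06 and 6.93 in control islets and 7.35, 7.81 and 7.24 in Sox17-GOF islets. The groups did not overlap (log2 fold change 0.53 ± 0.15 SE, limma adjusted p = 0.106). Cdkn1b, an inhibitor of Cdk2 complexes, varied most within groups among the inhibitors, at 10.49, 11.03 and 10.20 in control islets and 10.21, 10.09 and 10.68 in Sox17-GOF islets. Its groups overlapped and its log2 difference was -0.25 (95% interval from -0.78 to 0.29), while its other probe set gave 0.02.

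Cdkn1c, a further inhibitor of this family, measured 6.68, 6.69 and 6.90 in control islets and 6.90, 6.81 and 7.0 in Sox17-GOF islets, with overlap and a log2 difference of 0.14 (95% interval from -0.07 to 0.36). Cdkn2a, the locus of an inhibitor that accumulates with age in β cells, measured 6.18, 6.38 and 6.31 in control islets and 6.29, 6.45 and 6.47 in Sox17-GOF islets. These overlap, with a log2 difference of 0.11 (95% interval from -0.10 to 0.32). Ezh2, the Polycomb methyltransferase that silences Cdkn2a in young β cells, was 2.67-fold higher in the same islets, with 7.75, 7.86 and 7.73 in control and 9.24, 9.29 and 9.07 in Sox17-GOF islets (log2 fold change 1.42 ± 0.09 SE, limma adjusted p = 0.000327). Any link between Ezh2 and Cdkn2a in these islets was not tested.

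Rb1, the retinoblastoma gene, measured 8.85, 8.93 and 8.69 in control islets and 9.00, 9.03 and 8.94 in Sox17-GOF islets. Although the groups do not overlap, the gap was narrow and the gene did not pass (log2 fold change 0.17 ± 0.09 SE, limma adjusted p = 0.339). Men1, which encodes menin, a tumour suppressor that maintains CDK inhibitor genes in islets, measured 8.21, 8.03 and 8.10 in control islets and 8.20, 8.11 and 7.84 in Sox17-GOF islets. Its log2 difference was -0.06 with a 95% interval from -0.32 to 0.19.

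Further genes of the pathway were read from 5 wider lists, and 13 of their genes were called. The counts in the lists of origin and fork factors, mitotic genes, G1 and checkpoint regulators and the p53 pathway lie near the 5.21% called over all genes, so they are no result about those lists, and the genes below are given as single genes. Of 46 other factors of origins and forks, 2 rose, 0 fell and 44 did not pass, with a median log2 fold change of 0.02. The called genes were Lig1, the ligase that joins Okazaki fragments (log2 fold change 0.50 ± 0.11 SE, limma adjusted p = 0.0415), and Rfc3, a subunit of the clamp loader (0.34 ± 0.08 SE, adjusted p = 0.0494). Among 56 other mitotic genes, 2 rose, 0 fell and 54 did not pass, with a median of 0.23, and 39 of the 56 were highest on Sox17-GOF replicate 2. Ncaph2, a condensin II subunit, rose by 0.45 (± 0.09 SE, adjusted p = 0.0278) and Kif20b, a kinesin of late mitosis, by 0.44 (± 0.09 SE, adjusted p = 0.0373). Foxm1, a transcription factor that drives mitotic genes, was not called, at 6.14, 5.73 and 5.55 in control islets and 5.78, 6.30 and 5.62 in Sox17-GOF islets; it is named after its values were seen.

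Of 51 other regulators of G1 and checkpoints, 2 rose, 1 fell and 48 did not pass (median log2 fold change 0.05). Ccng2, an atypical cyclin associated with cells that leave the cycle, rose 2.32-fold, from 6.67, 7.14 and 6.69 in control islets to 8.18, 8.04 and 7.91 in Sox17-GOF islets (log2 fold change 1.21 ± 0.14 SE, limma adjusted p = 0.00472). Its Sox17-GOF arrays were all above the controls and close together. Ccni, another atypical cyclin, rose by 0.49 (± 0.08 SE, adjusted p = 0.0172), and Atm, the kinase that signals DNA breaks, fell by 0.65 in log2 signal (SE 0.10, adjusted p = 0.0155). Of 19 genes of the p53 pathway, 1 rose, 0 fell and 18 did not pass, with a median of -0.05. That gene was Perp, a membrane protein and p53 target (log2 fold change 0.83 ± 0.12 SE, adjusted p = 0.00974).

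Of 31 genes that carry signals for β cell replication, 2 rose, 3 fell and 26 did not pass (median log2 fold change 0.02). Besides Ezh2, the gene that rose was Met, the receptor of hepatocyte growth factor (0.79 ± 0.16 SE, limma adjusted p = 0.0367). Akt2, a kinase downstream of the insulin receptor, fell by 0.51 in log2 signal (SE 0.08, adjusted p = 0.0124). The growth hormone receptor gene Ghr fell by 0.43 (± 0.08 SE, adjusted p = 0.0264) and Stat5b, a transcription factor downstream of it, fell by 0.34 (± 0.07 SE, adjusted p = 0.0386).

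The calls differed in how far they rested on single arrays. Gins1 and Smc2 were called in each of the 6 fits that leave out 1 array, with an adjusted p of at most 0.0447 and 0.0446. Ccnb2, Hmgb2 and Cdk4 were called in the fit without Sox17-GOF replicate 1 and in none of the others, with adjusted p of up to 0.139, 0.116 and 0.153. Cdk1 was called without Sox17-GOF replicate 1 or 2 and lost its call without Sox17-GOF replicate 3 or any control array (adjusted p up to 0.142). Cdk4 also lost its call with arrays centred on their medians (adjusted p = 0.0900) or quantile normalized again (adjusted p = 0.0659). In the wider lists Ccng2, Ezh2 and Perp were called in all 6 of these fits, and every other call named there ended in at least 3 of them.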

How the data were processed

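Islet RNA from 3 control and 3 Sox17-GOF samples was amplified, biotin-labelled and hybridized to Affymetrix Mouse Gene 1.0 ST arrays (a single array for each sample). The authors deposited log2 signals after RMA, credited to GeneSpring in the methods and to Affymetrix Expression Console in the processing notes. RMA corrects background, equalizes array distributions and summarizes probe sets, and it compresses changes of weak signals.

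The genotypes were fitted in limma 3.58.1 (R 4.3.3; lmFit, then eBayes without trend or block). Benjamini-Hochberg adjustment ran over the 22961 of 34760 probe sets that have gene names, 21640 of them with 1 symbol, and the calling threshold was 0.05. The number of arrays limits the precision. The genes, their 4 groups, the wider lists and the markers were chosen with earlier results of these data known. Described with all values are called genes, the 3 largest changes, the highest and lowest signals of each group and 12 genes fixed by name, plus some named to complete a complex; of the wider lists, called genes. The fit was tested on simulated data with 3 against 3 arrays. It called 35 and 40 of 50 probe sets with a true log2 change of 1 and -1. At 0.5 and -0.5 it called only 15 and 17 of 50, so changes of that size were mostly missed in the simulation. Far fewer probe sets were changed there than were called in the data, which makes the adjusted threshold stricter. These shares therefore do not carry over to the real fit. Of 22761 unchanged probe sets 3 were called. Motifs were counted in RefSeq windows with Python 3.11.15.

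Alternatives covered the variance model (intensity trend; array weights), scaling (centred medians; a second quantile step), the probe sets tested (all; without dim ones; averaged by gene), a replicate block, the t-test of the methods, and omission of single arrays.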

Additional observations from a re-analysis of the deposited data

How the results depend on the processing

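The calls of 6 genes (5 higher, 1 lower) became 2 (2 and 0) with all probe sets tested, which raises the number of tests, and 0 with the methods' t-test after Benjamini-Hochberg, which called 7 of the 44 when unadjusted (p under 0.05) with a fold of at least 1.3. Between 2 and 7 genes were called when 1 array was left out, 2 to 5 higher and 0 to 2 lower. The count of lower genes was 2 with array weights or an intensity trend, and 0 with median centring, quantile normalization or the replicate block. The wider lists held 13 calls in the reported fit, 6 with all probe sets, 8 with median centring, 1 with the methods' t-test after adjustment, 6 with the replicate block and 3 to 12 without 1 array. Over all named probe sets 1133 were called, 558 with all probe sets tested, 71 by the adjusted t-test, 720 with the replicate block and 385 to 1020 without 1 array. Sox17 kept its log2 fold change of 0.67 in the t-test, with an adjusted p of 0.0906. The median of the G1/S genes ran from -0.041 to 0.044 without 1 array, that of the G2/M genes from 0.25 (without Sox17-GOF replicate 2) to 0.65, that of the DNA replication genes from 0.029 (without Sox17-GOF replicate 2) to 0.12 (without Sox17-GOF replicate 3) and that of the inhibitors from 0.081 to 0.16. The numbers of the replicates share no stated litter or day, and deviations of same-numbered arrays correlated at -0.04 to 0.05, so the block is given here alone. With the replicate block 4 of the 44 genes were called, Ccnb2, Gins1, Smc2 and Cks2 (adjusted p = 0.0314). No called gene reversed its direction. Causes of these shifts were not tested.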

Other observations

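Since Smc2 and Ncaph2 rose and Smc4 did not pass, all condensin subunits were set side by side with the related cohesin and SMC5/6 genes, lists chosen after these values were seen and given with no test of their own. Of 8 condensin genes 2 rose and 6 did not pass, with a median log2 fold change of 0.17. Among the subunits of condensin I, Ncaph measured 5.17, 5.17 and 5.27 in control islets and 5.33, 5.73 and 5.56 in Sox17-GOF islets, and Ncapg measured 5.29, 5.22 and 5.38 in control islets and 5.25, 6.19 and 5.18 in Sox17-GOF islets. Ncaph did not overlap, while Ncapg was raised on Sox17-GOF replicate 2 alone. Neither was called (adjusted p = 0.151 and 0.672 from limma). Ncapd2, Ncapg2 and Ncapd3 overlapped between the groups, with log2 differences of 0.06, 0.09 and -0.04. Of 15 measured cohesin and SMC5/6 genes, which hold sister chromatids together and repair DNA, 0 were called by limma and 4 had an unadjusted p under 0.05. Their median log2 fold change was -0.11, and 5 had no overlap, all lower in Sox17-GOF islets, beside 14.2% of all genes that were lower without overlap.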
